A study of Mus musculus with 28 samples.

Results

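The respiratory chain is built from genes of 2 genomes, and both sets were followed here in mouse hypothalamus. The members are the genes of the mitochondrial genome (names starting with mt-) and the nuclear genes whose names start with Nduf followed by a, b, c, s or v and a digit, are Sdha to Sdhd, or start with Uqcr, Cox4 to Cox8 or Atp5. The rule found 126 genes of the 55487 in the count table, 37 mitochondrial and 89 nuclear. The mitochondrial members are 13 protein genes, 2 rRNA genes and 22 tRNA genes. The nuclear members were assigned to complexes by the start of their names alone. This gave complex I (40), complex II (4), complex III (8), complex IV (19) and complex V (18). Ndufa4 and Ndufa4l2 are thus counted with complex I by name. Of the nuclear members, 4 (Ndufs6b, Cox6c2, Ndufb4c and Ndufa11b) are annotated as pseudogenes.

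All mice carried LepRb-eGFP-L10a, a ribosomal protein of the large cytosolic subunit tagged with eGFP in cells that express LepRb, the long form of the leptin receptor. They were male and female, 10 to 13 weeks old, and went without food from the start of the light phase. One group had no further allele and is called WT by the labels. The other also carried Lep ob/ob, which removes functional leptin. Each mouse received metreleptin (5 mg/kg, intraperitoneal) or vehicle, named as 0.9% saline in the protocol and as PBS in the treatment labels, and was analysed 3 or 10 h later. Every hypothalamic lysate gave a bead library, which is the RNA pulled down with the tagged ribosomes, and a depleted library, which is the RNA left in the supernatant. There were 14 lysates and 28 libraries. At 3 h, WT mice gave 4 lysates with vehicle and 3 with leptin. At 10 h, WT mice gave 1 with vehicle and 3 with leptin, and ob/ob mice gave 2 with vehicle and 1 with leptin. The labels do not say whether a lysate is 1 mouse or a pool, so p-values measure the spread between these samples only.

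As background, complexes I to IV pass electrons from NADH and succinate to oxygen, and complexes I, III and IV pump protons out of the mitochondrial matrix. Complex V, the ATP synthase, uses the proton gradient to make ATP. Complex II is coded wholly in the nucleus, while the other complexes mix subunits of both genomes. The nuclear mRNAs are translated by cytosolic ribosomes, the kind that carries L10a. The mitochondrial mRNAs stay inside the organelle and are translated by its own ribosomes, whose proteins come from the Mrpl and Mrps genes of the nucleus. Neurons depend strongly on this pathway for ATP.

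Several mitochondrial protein genes have near-identical annotated copies in the nuclear genome, which are shown here because several of these members had few or no counts. In GRCm38 coordinates, 7 unprocessed pseudogenes lie side by side on the minus strand of chromosome 1 from 24611535 to 24616197, a stretch of 4663 bases. Of the 50-base windows of mt-Co2, which codes for a core subunit of complex IV, 100% are found in other annotated genes and 99.5% in the copy Gm28661. The share found in other genes was 99.9% for mt-Co3 (copy Gm28437), 99.5% for mt-Atp6 (Gm10925), 98.8% for mt-Nd4l (Gm10222) and 98% for mt-Nd3 (Gm28438). It was smaller for mt-Nd4 (62.2%) and mt-Co1 (51.1%), and was 8.19% for mt-Nd2, 7.61% for mt-Nd5, 1.04% for mt-Rnr2 and 0% for mt-Cytb, mt-Nd1, mt-Nd6, mt-Atp8, mt-Rnr1 and the 22 tRNA genes. The windows are compared with annotated transcripts only, and bases between annotated genes were not searched. The following 60-base stretches show a copied, a partly copied and an uncopied gene, with capitals marking the base that differs between a gene and its copy.
mt-Co2, chrM:7073-7132, plus strand: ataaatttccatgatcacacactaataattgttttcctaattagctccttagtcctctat
Gm28661, chr1:24615446-24615505, minus strand: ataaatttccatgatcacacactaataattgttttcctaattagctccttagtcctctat
mt-Nd5, chrM:12447-12506, plus strand: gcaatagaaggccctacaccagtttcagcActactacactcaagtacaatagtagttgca
Gm4076, chr13:85127455-85127514, minus strand: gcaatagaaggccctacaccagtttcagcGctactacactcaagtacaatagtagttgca
mt-Cytb, chrM:14205-14264, plus strand: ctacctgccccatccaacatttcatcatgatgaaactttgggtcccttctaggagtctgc

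The mt-Co2 stretch has no difference from Gm28661, and 0 of the 681 aligned bases of the 2 genes differ. By contrast, 93 of 965 aligned bases differ between mt-Nd5 and Gm4076. The protein genes mt-Co2, mt-Co3, mt-Atp6, mt-Atp8 and mt-Nd4l were listed at 0 in all 28 libraries, and mt-Nd3 had 76 counts in all libraries together. The 7 tRNA genes mt-Tw, mt-Ty, mt-Ts1, mt-Td, mt-Tk, mt-Tg and mt-Th were also listed at 0. Of these genes at 0, mt-Atp8 and the tRNAs share no window with another annotated gene. The 7 copies on chromosome 1 together held 144 counts. Against this, mt-Co1 had 1000374 counts in total, mt-Nd2 422046, mt-Nd5 400566, mt-Rnr2 381757 and mt-Nd4 379774. The sources used here do not give how reads that match more than 1 place were counted, and its part in these zeros was not tested. The 5 protein genes at 0 have no fold below, and the levels of mt-Co1 and mt-Nd4 are uncertain beside those of the uncopied genes.

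Of the 126 members, 113 had at least 1 count (25 mitochondrial, 88 nuclear), and 100 passed the filter of 10 counts in 3 libraries. The 17 mitochondrial members that passed were 7 protein genes (mt-Nd1, mt-Nd2, mt-Nd4, mt-Nd5, mt-Nd6, mt-Co1 and mt-Cytb), both rRNAs and 8 tRNAs. The 83 nuclear members that passed were 37 of complex I, 4 of complex II, 8 of complex III, 17 of complex IV and 17 of complex V. Ndufs6b, Cox6c2, Cox8c, Ndufb4c, Ndufa11b and the second of the table's Atp5o entries did not pass. In the smaller comparisons within beads, 13 mitochondrial and 82 nuclear members were tested. The gene mt-Nd6 overlaps mt-Nd5 on the other strand, and since the library kit does not mark the strand, their reads cannot be told apart where they overlap. Nuclear members that passed the filter and share windows with other genes include Atp5o (41.6% of windows, with 4 genes), Atp5g2 (38.3%, with 3), Ndufb6 (31.6%, with the protein gene Smim27), Uqcrb (25.5%, with 5), Cox7c (22.1%, with 3) and Ndufs5 (21.7%, with 1), and their levels are uncertain.

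The promoters of the nuclear members, which respond to shared regulators in many tissues, were read for known motifs. RefSeq windows from 250 bases before to 50 after the gene start, on GRCm38.p6, were found for 69 of the 89 nuclear members (74 windows) and for 0 mitochondrial members. The letters GCGCANGCG, a core of the site of NRF1, a regulator of respiratory genes, were found on either strand in 22 of 74 windows (29.7%), compared with 2053 of 32851 windows of all genes (6.25%). AAGATGGCG, letters of a YY1 site, was in 7 member windows (9.46%) and in 1.4% of all windows. TCAAGGTCA, letters of an ERR site, was in 2 member windows (2.7%, Atp5g3 and Sdhd) and in 0.423% of all. CCGGAAGT, letters of an ETS site, was in 6.76% of member windows and 3.89% of all, TATAAAA in 5.41% and 5.48%, and GGGGCGGGG in 14.9% and 11.4%. No listed motif contains another, and a window can hold more than 1 of them. Stretches upstream of the RefSeq start are shown for 4 members of complexes II, IV and V. They were chosen because each holds the NRF1 letters, given in capitals, and each is 60 bases on the minus strand.
Sdha, chr13:74350304-74350363: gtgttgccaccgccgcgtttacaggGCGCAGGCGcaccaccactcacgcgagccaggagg
Sdhd, chr9:50603894-50603953: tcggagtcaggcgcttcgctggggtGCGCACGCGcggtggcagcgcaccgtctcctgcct
Cox6a1, chr5:115349086-115349145: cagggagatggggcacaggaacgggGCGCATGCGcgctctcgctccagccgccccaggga
Atp5k, chr5:108434415-108434474: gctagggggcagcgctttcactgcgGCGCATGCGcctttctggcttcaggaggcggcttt

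These matches describe the letters in the windows and say nothing of binding. In the GENCODE M21 annotation Atp5k extends to 108434448, so its stretch lies partly inside the gene by that annotation. Atp5k and Sdha are taken up again below with the values of their transcripts.

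Libraries held 19649105 to 42267040 counts. All 14 libraries of WT mice at 3 h were sequenced in 1 run, the 8 of WT mice at 10 h in another and the 6 of ob/ob mice in the last, so time, genotype and run cannot be told apart, whereas leptin and vehicle were compared within a run. The summed level of 10 LepRb-neuron markers (among them Lepr, Agrp and Pomc) in beads was 291.5% to 2215% of that in the depleted library of the same lysate, lowest in the leptin f2 lysate at 3 h. Pituitary transcripts (Gh, Prl and 4 others) summed to 284.2 CPM (counts scaled to a library total of 1000000) in the depleted library of vehicle m3, to 3066 in that of leptin f2 and to 147.4 in that of ob/ob leptin 1, compared with 2.8 to 7.1 in the others. In the 3 h leptin lysates the LepRb-neuron markers summed to 1749 to 2271 CPM in beads and 105.1 to 600.2 CPM in depleted libraries. The part of pituitary tissue in the low ratio of f2 was not tested. Results that change without the pituitary-rich libraries are given both ways.

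Counts on the mitochondrial members made up about 1% of the depleted libraries and far less of the bead libraries. The nuclear members took more of the bead libraries. Of the 13 mitochondrial protein genes, 5 were listed at 0 throughout, so the mitochondrial share covers only the genes with counts. The summed mitochondrial counts were 0.807% to 1.312% of a depleted library (median 1.051%) and 0.012% to 0.505% of a bead library (median 0.0351%). The summed nuclear members were 1.354% to 1.627% of a depleted library (median 1.496%) and 1.544% to 2.032% of a bead library (median 1.858%). The mitochondrial shares of the fractions did not overlap. In bulk RNA of this kind, fewer cells of a type and less RNA per cell cannot be told apart.

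Among the bead libraries, the mitochondrial share varied widely, and vehicle lysates of the 10 h groups were the highest. At 3 h the vehicle beads held 0.0300% (m1), 0.0238% (m3), 0.0677% (f1) and 0.0403% (f3), and the leptin beads 0.0240% (m24), 0.0416% (f2) and 0.0447% (f4). At 10 h, WT beads held 0.108% in the single vehicle lysate (Wilson 95% interval 0.1068% to 0.1089%, for counting error only) and 0.0177%, 0.0242% and 0.0254% in the leptin lysates. The ob/ob beads held 0.0872% and 0.505% with vehicle and 0.0120% with leptin (interval 0.01155% to 0.01248%). The second ob/ob vehicle lysate therefore stood far above every other bead library. In that lysate the bead level of long nuclear-retained RNAs was also high, at 43.42% of the depleted level (range of all lysates 7.787% to 50.14%), as were astrocyte markers at 64.23% (23.97% to 85.68%), microglia markers at 53.94% (19.11% to 66.43%) and oligodendrocyte markers at 57.51% (22.9% to 58.57%). Erythrocyte markers were at 57.57% there, the highest of all lysates. The 3 h vehicle f1 lysate had 50.14% for nuclear-retained RNAs, 85.68% for astrocyte, 51.64% for microglia and 58.57% for oligodendrocyte markers. Its summed mitochondrial level in beads was 5.491% of the depleted level, compared with 45.79% in the second ob/ob vehicle lysate. The part of these RNAs and cells in the result was not tested.

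**Figure D1:**
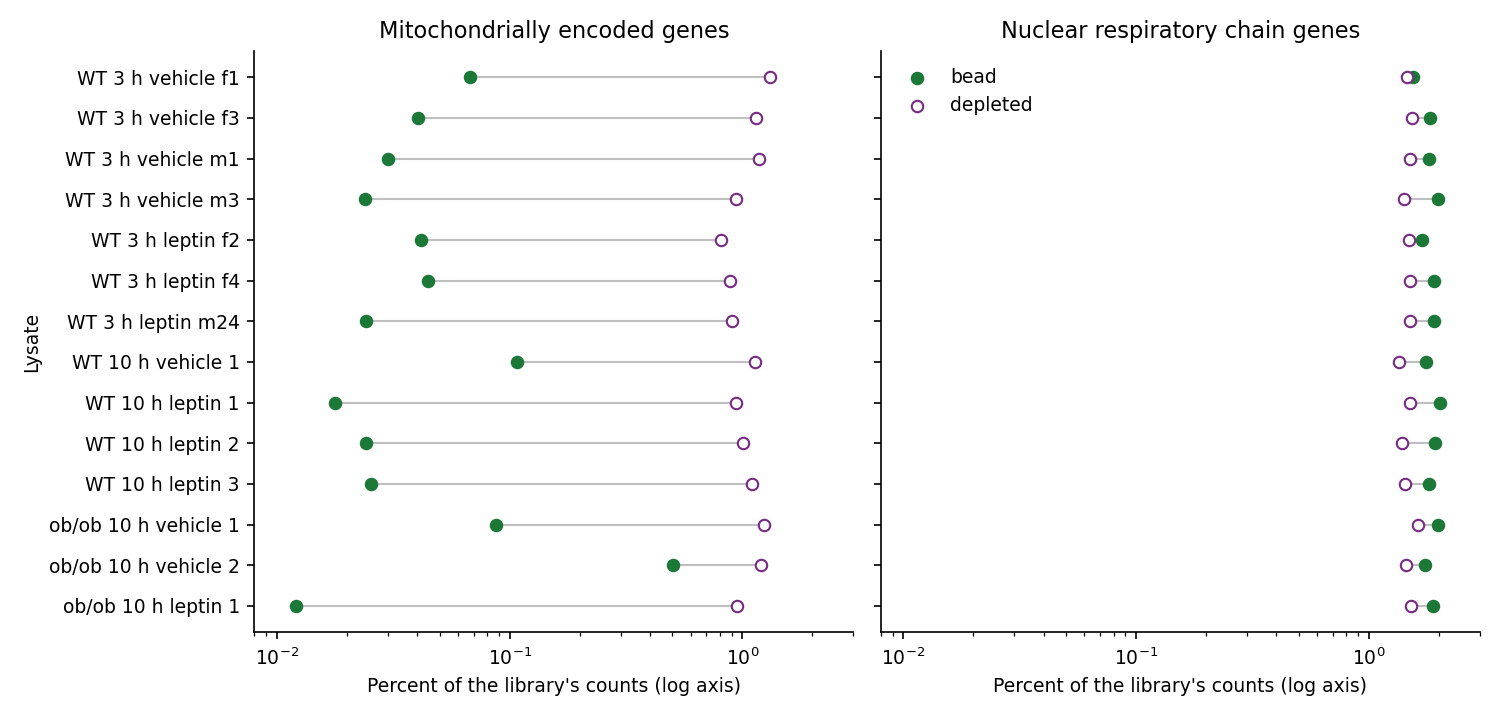
Percent of each library's counts that fell on mitochondrial (left) and nuclear (right) respiratory chain genes, both on a log axis, 1 point per library and lines joining the 2 fractions of a lysate. Genes without counts add nothing to the shares. Mitochondrial shares were lower in beads in all 14 lysates (0.012% to 0.505% against 0.807% to 1.312%), while nuclear shares were 1.544% to 2.032% in beads and 1.354% to 1.627% in depleted libraries.

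Set beside each other per kilobase of annotated exon, the most abundant mitochondrial mRNAs were above every nuclear member in the depleted libraries. The length used is that of all annotated exons of a gene together, such as 4237 bases for Atp5b and 619 for Cox8a. The order of the genes therefore depends in part on their annotation. The mean level was 1718 CPM per kilobase (SD 259.9, n = 14) for mt-Cytb, the cytochrome b of complex III. It was 1648 (SD 250.7) for mt-Nd1 of complex I and 1345 (SD 204.8) for mt-Co1, the catalytic subunit of complex IV. The nuclear members with the highest levels were Cox8a (493.6, SD 49.29), Cox6a1 (412), Cox6b1 (390.3), Atp5b (374.9) and Atp5a1 (366.2), the last 2 being the catalytic and partner subunits of the ATP synthase head. In beads Cox8a was at 780.8, Cox6b1 at 660.7 and Atp5a1 at 515.2 CPM per kilobase. The median over nuclear members of a complex in depleted libraries was 78.38 (complex I), 99.16 (II), 94.12 (III), 57.11 (IV) and 65.84 (V) CPM per kilobase, and in beads 111.8, 136.6, 144.4, 80.64 and 102.4.

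Where a subunit has alternative genes, 1 form dominated. In depleted libraries Cox4i1 was at 319.4 and Cox4i2, the form known from lung and low oxygen, at 1.688 CPM per kilobase. Cox6a1 was at 412 and the heart and muscle form Cox6a2 at 20.57, and Cox8a was at 493.6 and the muscle form Cox8b at 0.730. The testis form Cox6b2 was at 2.552 against 390.3 for Cox6b1. Of the Cox7a genes, Cox7a2 was at 180.4, Cox7a2l at 57.11 and the muscle form Cox7a1 at 5.70. Ndufa4 was at 228.5 and Ndufa4l2 at 1.994. Of the 3 genes that code for the same ring subunit of ATP synthase, Atp5g3 was at 220.6, Atp5g1 at 7.811 and Atp5g2 at 1.050, the last with the shared windows given above. Their annotated exons span 2181, 4912 and 1675 bases in that order, so the ratios depend in part on the annotation.

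All 17 tested mitochondrial members were lower in beads than in the depleted fraction, by 9.91- to 28.2-fold. Over all 19682 genes tested, 39.3% were lower and 38.6% higher in beads, so a call alone does not set these genes apart, but the median log2 difference was -4.32 for the mitochondrial members and -0.00828 for all genes. The bead value lay below the depleted value in all 14 lysates for 17 of 17 mitochondrial members, compared with 19.5% of all genes, and members are not replicates. Of these 17, mt-Te, mt-Ti, mt-Tm and mt-Tq did not pass the filter within beads and entered through the depleted libraries. Their lower bead level was therefore favoured by the filter and is not counted as support. The other 13 passed the filter within beads as well. For mt-Cytb the depleted libraries of 3 h held 2187, 1756, 2540 and 2183 CPM (vehicle m1, m3, f1, f3) and 1740, 1538 and 1672 CPM (leptin m24, f2, f4), while their beads held 51.05, 41.68, 121.2 and 63.01, and 37.12, 82.06 and 81.45 CPM. At 10 h the WT vehicle lysate had 2134 depleted and 215.6 bead CPM, and the WT leptin lysates 1688, 1803 and 1992 against 26.57, 36.51 and 39.47. The ob/ob vehicle lysates had 2340 and 2180 against 169.7 and 928, and the ob/ob leptin lysate 1763 against 17.32. No bead library reached a depleted one, and the nearest was the second ob/ob vehicle lysate. The fitted log2 difference was -4.82 (SE 0.416), or 28.2-fold.

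The other mitochondrial mRNAs lay close to mt-Cytb. For mt-Co1, the bead libraries ranged from 32.01 to 1009 CPM and the depleted from 1658 to 2684 CPM, with a log2 difference of -4.32 (SE 0.348, 19.9-fold). For mt-Nd1, an early membrane subunit of complex I, beads held 22.95 to 808.9 CPM and depleted libraries 1283 to 1976 CPM (22.1-fold lower in beads). The log2 differences of mt-Nd2, mt-Nd4, mt-Nd5 and mt-Nd6 were -4.78, -4.69, -4.43 and -4.54. The rRNAs were lower by a similar amount, mt-Rnr2 at -4.32 and mt-Rnr1 at -4.17. Among tRNAs, which are short and poorly caught by a poly(A) protocol, the differences ran from -4.32 (mt-Tp) to -3.31 (mt-Ti), with mt-Tm at -4.19, mt-Tc -4.05, mt-Tq -3.88, mt-Tl1 -3.75, mt-Ta -3.73 and mt-Te -3.70. Adjusted p-values of the 17 genes ran from 5.94e-10 to 1.74e-06 (edgeR quasi-likelihood test). Leaving out the second ob/ob vehicle lysate moved their median from -4.32 to -4.6.

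Summed over the mitochondrial genes, a bead library held 1.439% to 45.79% of the depleted level of its lysate (median 3.462%). Long RNAs kept in the nucleus, such as Malat1 and Meg3, held 7.787% to 50.14% (median 18.62%), astrocyte markers 37.48%, oligodendrocyte markers 32.69% and microglia markers 29.32% at the median. Ependymal and tanycyte markers were at 39.21%, pituitary at 42.41% and erythrocyte at 31.54%. Endothelial and mural markers had a higher median of 69.08% and ranged from 35.16% to 208.7%, highest in the 3 h vehicle f1 lysate. General neuron markers were at 110.7% and mitochondrial ribosomal protein genes, which are nuclear, at 148.6%.

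Of the 83 nuclear members tested, 72 were higher and 6 lower in beads, beside 38.6% and 39.3% of all genes, with a median log2 difference of 0.542. For 59 of 83 the bead value exceeded the depleted value in all 14 lysates, compared with 22.5% of all genes. With libraries scaled by their totals in place of TMM, the median over all genes moved from -0.00828 to -0.186 and the counts were 67 higher and 10 lower, and over all genes 5393 higher and 9925 lower in place of 7603 and 7730. The summed nuclear members in beads were 112.2% to 162.9% of the depleted level (median 141.3%). All 4 genes of complex II and all 8 of complex III were higher in beads, as were 34 of 37 of complex I, 11 of 17 of complex IV and 15 of 17 of complex V. The medians by complex were 0.639 (I), 0.413 (II), 0.662 (III), 0.459 (IV) and 0.542 (V).

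The largest bead excess among members of at least 10 CPM was that of Ndufa7, followed by Uqcr11. Ndufa7, an accessory subunit of complex I, was at 123.5 to 197.3 CPM in beads and 67.79 to 97.23 CPM in depleted libraries, with no overlap and a log2 difference of 0.95 (SE 0.057, 1.93-fold). Uqcr11, a small subunit of complex III, was at 73.9 to 135.9 CPM (median 111.8) in beads and 46.77 to 66.73 CPM (median 61.32) in depleted libraries, a log2 difference of 0.88 (SE 0.054). Both ranges were apart in all libraries. Ndufs5 (0.88), Atp5j2 (0.85), Cox7a2 (0.83), Uqcrh (0.82), Ndufa6 (0.82) and Cox7a2l (0.81) followed, Ndufs5 with the shared windows given above.

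Other core subunits and isoforms spanned the range below these. Atp5a1 held 1481 to 1803 CPM in beads and 1047 to 1342 CPM in depleted libraries (log2 0.49, SE 0.030). Cox4i1 held 568.1 to 828.8 and 433.6 to 575.7 CPM (0.52, SE 0.043). Sdha, the flavoprotein that oxidises succinate and whose promoter stretch is shown above, held 628.8 to 741.2 and 537.5 to 592.6 CPM (0.27). The iron-sulfur partner Sdhb was at 0.44, and the membrane anchors Sdhc and Sdhd at 0.38 and 0.46. The NADH-binding Ndufv1 (0.23) and the iron-sulfur subunit Ndufs1 (0.26) of complex I had lower values, as had Ndufs3 (0.23), the core proteins Uqcrc1 (0.16) and Uqcrc2 (0.26), the Rieske protein Uqcrfs1 (0.35), Atp5b (0.17) and Ndufa9 (0.17). With libraries scaled by their totals, Atp5b (-0.00415), Uqcrc1 (-0.0148) and Ndufa9 (-0.00458) changed sign. Others lay between, such as Cox5a (0.46), Cox6c (0.63), Atp5g3 (0.63), Atp5g1 (0.34), Cox6a1 (0.33), Cox6b1 (0.75), Cox8a (0.66) and Ndufa4 (0.79).

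The 6 nuclear members lower in beads were mostly the minor isoforms. They were Cox8b (log2 -1.74, SE 0.398), Cox4i2 (-1.06, SE 0.150), Ndufa4l2 (-0.52), Cox6a2 (-0.35) and Cox6b2 (-0.33), together with Atp5l (-1.83, SE 0.186). Cox8b did not pass the filter within beads and entered through the depleted libraries, so its call is not counted as support. Its mean level was low, at 0.2089 CPM per kilobase in beads and 0.7296 in depleted libraries. Atp5l, a subunit that links ATP synthase dimers, held 0.351 to 2.149 CPM in beads and 2.608 to 4.042 CPM in depleted libraries, and 9.99% of its windows are shared with 642 other genes. Its annotated exons span 6443 bases, while its coding sequence has 309. The share within the coding sequence was not measured separately, and the level of Atp5l is uncertain. Cox4i2 held 0.336 to 1.013 CPM in beads and 0.874 to 2.059 CPM in depleted libraries. These 2 were the only nuclear members below the depleted value in all 14 lysates. Ndufa10 (0.05), Ndufb9 (0.08), Cox7a1 (0.02), Cox7b2 (-0.30) and Atp5g2 (-0.19) did not pass the test.

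**Figure D2:**
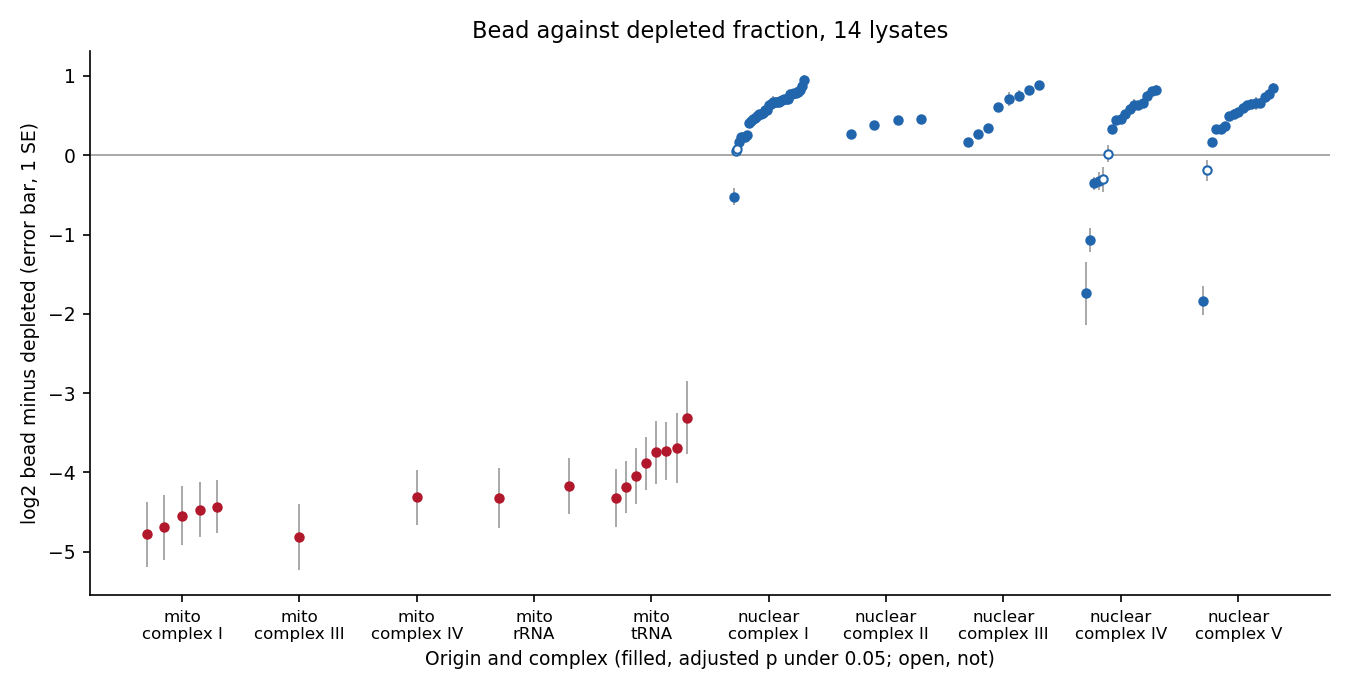
Log2 difference between bead and depleted libraries (bead minus depleted, paired by lysate) for each tested member, grouped by origin and complex, with bars of 1 SE and open points for genes that did not pass the test. The 17 mitochondrial members lie between -4.82 and -3.31 and most nuclear members between 0.16 and 0.95, with Atp5l (-1.83) and Cox8b (-1.74) the lowest nuclear ones. The genes mt-Te, mt-Ti, mt-Tm, mt-Tq and Cox8b passed the filter only through the depleted libraries.

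Within the nuclear members, the median bead excess was larger for genes with a short coding sequence, and all 6 members lower in beads were short as well. The median log2 difference was 0.63 for the 63 members of up to 600 coding bases, 0.375 for the 11 above 600 and up to 1200 bases and 0.26 for the 9 above 1200 bases. Of the short members 53 were higher and 6 lower in beads (84.1% and 9.52%), of the middle class 10 and 0 (90.9% and 0%), and of the long 9 and 0 (100% and 0%). Among other genes, from short to long, 61.1%, 51.1% and 34.7% were higher and 24.4%, 31.2% and 43.6% lower. The share of members called higher thus did not fall with length, unlike that of other genes. Spearman's rho across the 83 members was -0.46. The medians of other genes had the same order at lower values, 0.36 for 1925 short genes, 0.162 for 4424 of middle length and -0.0665 for 9163 long ones, with a rho of -0.27. These are descriptions across genes, which share the libraries and are not replicates.

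**Figure D3:**
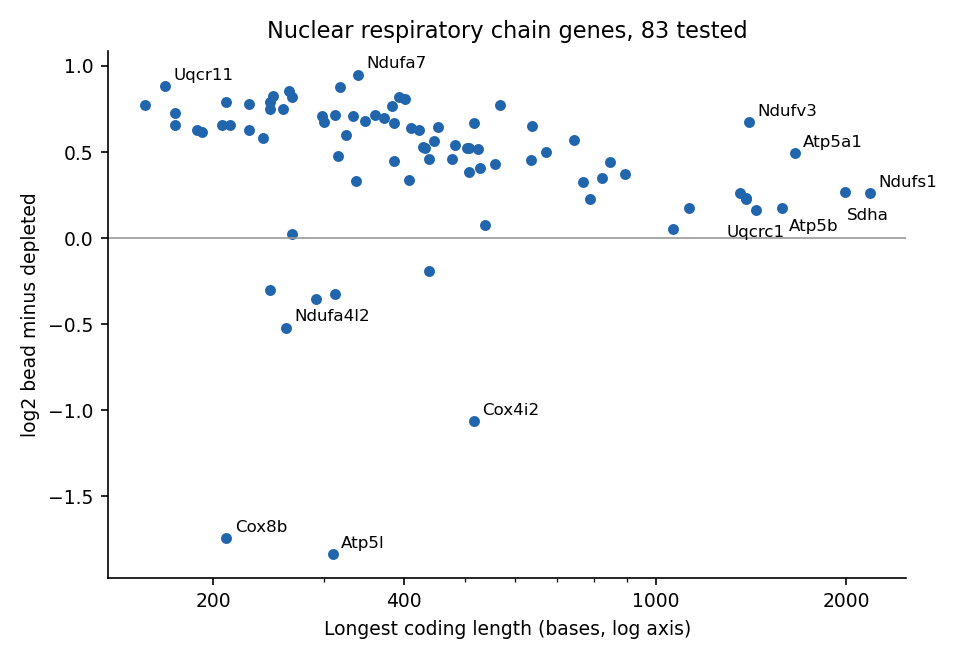
Log2 difference between bead and depleted libraries against the coding length in bases (log axis) for the 83 tested nuclear members, 1 point per gene. Members of up to 600 bases have a median of 0.63 and those above 1200 bases a median of 0.26.

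Genes that build and serve the chain differed between fractions in both directions, beside 38.6% of all genes higher in beads and 39.3% lower. Of the chain components outside the name rule, Cyc1 (0.18) and Cycs (0.19), the cytochromes that carry electrons from complex III to IV, were higher in beads. Of 44 assembly factors 32 were higher and 3 lower (median 0.35), with Sdhaf4 at 0.998 and Coa3 at 0.74, and Atpaf1 at -0.54 and Cox10 at -0.38. Of 28 genes that copy, transcribe or process mitochondrial DNA and RNA, 15 were higher and 2 lower (median 0.151), with Slirp, an RNA-binding protein of the matrix, at 1.21, Tefm at 0.62, Mterf1a at -0.46 and the polymerase Polg at -0.21. Of 10 nuclear regulators 0 were higher and 7 lower (median -0.451), including Gabpb2 (-1.32) and Esrrg (-1.13). The citric acid cycle genes had 13 of 17 higher and 2 lower (median 0.131; Mdh2 0.44, Suclg1 0.40, Suclg2 -0.70), and carriers and uncouplers 8 of 10 higher and 2 lower (median 0.326; Ucp2 0.81, Slc25a14 0.64, Ucp3 -1.55, Slc25a5 -0.21). Mitochondrial ribosomal protein genes had 74 of 77 higher and 1 lower (median 0.521), close to the nuclear members, and cytosolic ribosomal protein genes 74 of 82 higher and 2 lower (median 0.934).

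The fraction difference was found in each set of lysates. The members tested include mt-Te, mt-Ti, mt-Tm, mt-Tq and Cox8b, which passed the filter only through the depleted libraries. In WT mice at 3 h, 17 of 17 mitochondrial members were lower in beads (median -4.59) and 72 of 83 nuclear members were higher and 5 lower (median 0.465), beside 33.8% of all genes higher and 32.4% lower. In WT mice at 10 h, 17 were lower (median -4.59, or -5.36 without the single vehicle lysate), and 73 nuclear members were higher and 5 lower (median 0.707), beside 34% and 35% of all genes. In ob/ob mice, 16 of 17 were lower, with mt-Ti at -1.25 (adjusted p = 0.219, edgeR), and 67 nuclear members were higher and 2 lower, beside 24.8% and 23.2% of all genes. The ob/ob mitochondrial median of -3.21 rested on single lysates, being -4.75 without the second vehicle lysate and -2.25 without the leptin lysate. The nuclear median in ob/ob mice was 0.54.

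Whether the fraction difference itself changed with time was tested in WT mice. This fit had no leptin term. The WT set of 10 h held 3 leptin lysates and 1 vehicle lysate, and that of 3 h held 3 and 4. Time and leptin are therefore partly mixed here. Of all genes 0.432% passed, among them 0 mitochondrial members (median change -0.129) and 1 nuclear member, Atp5g1, which shares 11.1% of its windows with 366 other genes. The annotated exons of Atp5g1 span 4912 bases and its coding sequence 408, so its level is uncertain. Its bead values at 3 h were 41.86, 46.56, 35.2 and 42.49 CPM with vehicle and 41.91, 39.04 and 47.21 with leptin, and at 10 h 52.16 with vehicle and 60.12, 53.73 and 65.61 with leptin. Its depleted values were 35.4 to 38.25 CPM at 3 h and 34.04 to 42.59 CPM at 10 h. The bead values of 10 h thus all lay above those of 3 h, while the depleted values overlapped. The bead excess was 0.17 (SE 0.053) at 3 h and 0.59 (SE 0.070) at 10 h, a change of 0.417 (SE 0.088, adjusted p = 0.0484, edgeR). The change was positive for 76 of 83 nuclear members (median 0.235). Markers of other cells and of nuclei changed the other way between the times, with medians of -0.883 for astrocyte genes and -1.48 for nuclear-retained RNAs, and their part was not tested. The count of nuclear members that passed ran from 0 to 23 when 1 lysate was left out. It was 23 without vehicle m3, 2 without leptin m24 and 0 without each of 9 others (m1, f1, f2 and f3 of 3 h, the WT lysates of 10 h and the first ob/ob vehicle lysate), and it was 0 with libraries scaled by totals and 7 with DESeq2.

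Between genotypes at 10 h, the change of the fraction difference passed the test for 0.142% of all genes and 0 members. The mitochondrial median was 1.45, meaning a smaller bead deficit in the ob/ob set, and all 17 values were positive. Without the second ob/ob vehicle lysate the median was 0.0178. This fit had no leptin term. The WT set held 3 leptin lysates and 1 vehicle lysate, and the ob/ob set 1 leptin and 2 vehicle lysates. Genotype and leptin are therefore mixed in these values. The nuclear median was -0.181.

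In depleted RNA of WT mice, 27 of 83 nuclear members were lower at 10 h than at 3 h and 2 were higher (median -0.135), beside 4.84% and 3.55% of all genes. Of the 27, 15 belonged to complex I, 1 to complex II (Sdhc, -0.18), 3 to complex III, 3 to complex IV and 5 to complex V. These times were sequenced in different runs. Atp5k, a small membrane subunit of the ATP synthase whose promoter stretch is shown above, was at 133.7, 121.6, 139.5 and 150.7 CPM with vehicle and 145.7, 139.9 and 139.2 CPM with leptin at 3 h. At 10 h it was at 83.56 CPM with vehicle and 100.3, 88.37 and 90.5 CPM with leptin, so the times did not overlap. The log2 difference was -0.62 (SE 0.070, adjusted p = 0.000396, edgeR), the largest fall among the members with a mean of at least 10 CPM.

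Further members with a lower level at 10 h came from complexes I and V. Atp5o, part of the stalk that holds the ATP synthase head, fell from 97.89 to 113.1 CPM at 3 h to 75.39 to 95.01 CPM at 10 h (log2 -0.37, adjusted p = 0.00232, edgeR), with the shared windows given above. Ndufs7, an iron-sulfur subunit of complex I, fell from 146.9 to 175.4 CPM to 120.1 to 136.5 CPM (-0.35, adjusted p = 0.00167, edgeR). Atp5j2 (-0.34) and Ndufv3 (-0.33) also fell. Uqcrc2 rose from 216.9 to 241.2 CPM to 255 to 267 CPM (0.16, SE 0.039, adjusted p = 0.0222, edgeR), and Cox7c, with uncertain counts, from 7.075 to 8.951 CPM to 9.132 to 10.23 CPM (0.33, SE 0.082, adjusted p = 0.0217, edgeR).

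The count of nuclear members that changed with time rested on the WT 10 h vehicle lysate. It was 3 without that lysate, 14 without the second WT leptin lysate of 10 h and 2 when only leptin-treated lysates were compared, against 29 with all. DESeq2 gave 35, limma voom 29, and scaling by library totals 2 higher and 24 lower, while over all genes that scaling gave 961 higher and 662 lower in place of 679 and 925. By coding length, the difference between the times had a median of -0.178 for members of up to 600 bases, -0.0318 for the middle class and -0.0452 for the longest, and 38.1% of the short members fell compared with 9.06% of other short genes. Of the mitochondrial members 1 of 17 rose, mt-Tl1, from 2.391 to 4.693 CPM at 3 h to 3.977 to 6.826 CPM at 10 h (log2 0.70, SE 0.138, adjusted p = 0.00654, edgeR). It was not called without the WT 10 h vehicle lysate or in leptin-treated lysates alone. All 17 mitochondrial values were positive (median 0.149).

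Assembly factors fell in 5 of 44 cases and rose in 0 between the times, among them Pet100 (-0.41) and Uqcc2 (-0.32). Of all genes, 4.84% fell and 3.55% rose, which also stands beside the counts that follow for depleted RNA. Esrra, a nuclear receptor that drives respiratory genes, fell by 0.32 on the log2 scale and was the only regulator of 10 to pass. Of the genes for mitochondrial DNA and RNA, Pnpt1 rose (0.21). Vdac1, the main pore of the outer membrane, fell (-0.15), and 0 citric acid cycle genes passed. Mitochondrial ribosomal protein genes fell in 13 of 77 cases and rose in 0, and cytosolic ones fell in 14 and rose in 3 of 82. In beads, 0.247% of all genes differed between the times and 0 members did (lowest adjusted p among nuclear members 0.0552, edgeR, for Atp5g1). The bead count was 3 without vehicle m3 and 1 without both pituitary-rich lysates of 3 h.

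In depleted RNA at 10 h, 19 of 83 nuclear members were higher in ob/ob than in WT mice and 0 were lower (median 0.147), beside 3.82% and 4.06% of all genes. The 19 comprised 12 members of complex I, 1 of complex III, 2 of complex IV and 4 of complex V, and 79 of 83 values were positive. The time and genotype comparisons share the WT lysates of 10 h. Cox7a2l, an assembly factor for supercomplexes of the chain, was at 71.14 CPM with vehicle and 86.71, 74.02 and 81.16 CPM with leptin in WT mice, and at 108.9 and 88.15 CPM with vehicle and 95.89 CPM with leptin in ob/ob mice. All ob/ob libraries lay above all WT libraries (log2 0.33, SE 0.073, adjusted p = 0.0134, edgeR). Ndufb9, an accessory subunit of complex I, was at 101.8 to 114.5 CPM in WT and 148.4, 122 and 131.5 CPM in ob/ob libraries (0.32, SE 0.071, adjusted p = 0.0121, edgeR). Atp5md, a small ATP synthase subunit, was at 42.19 to 52.89 CPM and 52.67 to 60.29 CPM (0.31, SE 0.064, adjusted p = 0.00957, edgeR), with the lowest ob/ob library just below the highest WT library. Atp5k was at 83.56 to 100.3 CPM in WT and 129.8, 102.1 and 104.6 CPM in ob/ob libraries (0.32, adjusted p = 0.0332, edgeR), and Uqcr10 rose by 0.29.

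The genotype count also rested on few lysates. It was 0 without the WT vehicle lysate, 1 without the first ob/ob vehicle lysate, 3 without the ob/ob leptin lysate, 4 and 11 without the second and the third WT leptin lysate, and 0 when only leptin-treated lysates were compared. DESeq2 gave 22 and limma voom 17. Erythrocyte transcripts were higher in the ob/ob depleted libraries (summed 57.86 to 60.65 CPM against 25.27 to 36.73 CPM in WT at 10 h, 5 of 5 genes higher), and the part of blood or run in the result was not tested. Mitochondrial members passed in 0 of 17 cases (median -0.032). In beads 0.785% of all genes differed between genotypes and 0 members did. The bead mitochondrial median was 1.45, and -0.146 without the second ob/ob vehicle lysate.

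Related genes moved in both directions between genotypes in depleted RNA, where 3.82% of all genes were higher and 4.06% lower in ob/ob mice. Esrrg (0.36) and Esrra (0.30) were higher in ob/ob mice. Of the 28 listed genes for mitochondrial DNA and RNA, 4 were lower and 0 higher, with Tfb1m, a methyltransferase of the mitochondrial ribosomal RNA, at -0.41 and Polg at -0.28. Of the 46 listed assembly factors, 3 were higher and 2 lower, which is near the shares of all genes. Among them were Uqcc2 at 0.28, Surf1 at 0.26, Bcs1l, which inserts the Rieske protein, at -0.49 and Acad9 at -0.32. Of the citric acid cycle genes Pdhb (0.24) and Pdhx (0.21) were higher and Ogdh (-0.25) lower, and Vdac1 was higher (0.17). Cytosolic ribosomal protein genes were higher in 16 of 82 cases and mitochondrial ones in 5 of 77, with 0 and 1 lower.

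Leptin was compared with vehicle within each run. The members share the libraries, so the counts of members below are not counts of replicates. At 3 h, 0.022% of all genes passed in beads and 0% in depleted libraries, and 0 members passed in either. In depleted libraries the mitochondrial share was 1.179% (m1), 0.939% (m3), 1.312% (f1) and 1.147% (f3) with vehicle and 0.901% (m24), 0.807% (f2) and 0.885% (f4) with leptin. All leptin libraries thus lay below all vehicle libraries (mean 1.144% ± 0.154, SD, n = 4, and 0.864% ± 0.0504, SD, n = 3). The same held for 9 of 17 single mitochondrial members, compared with 4.09% of all genes. Their median log2 difference, leptin minus vehicle, was -0.451 (-0.73 to -0.38), 14 of 17 had an unadjusted p under 0.05 (1813 of 19115 genes did), and the lowest adjusted p was 0.299 (edgeR). DESeq2 called 9 of them and edgeR without vehicle m3 also 9, but 0 without each of the other lysates. In beads at 3 h the mitochondrial median was -0.131 and 0 members had an unadjusted p under 0.05 (1363 of all genes did). The difference of the leptin effect between fractions at 3 h passed for 0.0102% of genes and 0 members.

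At 10 h the mitochondrial level of the beads was lower with leptin in both genotypes, without passing the adjusted test. For mt-Nd1, beads held 188.6 CPM with vehicle and 32.83, 47.03 and 57.0 CPM with leptin in WT mice, and 147.2 and 808.9 CPM with vehicle and 22.95 CPM with leptin in ob/ob mice. Vehicle and leptin libraries did not overlap in either genotype, and this held for 13 of 13 tested mitochondrial members, compared with 14.8% of all genes. The 13 members share the same few libraries and are not replicates. The median log2 difference of the 13 was -3.62 (-2.92 to -5.91), all had an unadjusted p under 0.05 (1656 of 18212 genes did), and the lowest adjusted p was 0.151 (edgeR), beside 0.022% of genes called. The median was -2.48 without the second ob/ob vehicle lysate, -4.82 without the WT vehicle lysate and -2.29 without the ob/ob leptin lysate. DESeq2 called 12 of the 13, and edgeR called 11 without the first ob/ob vehicle lysate. These groups hold only 1 or 2 lysates on one side. In depleted libraries at 10 h, 0.00523% of genes and 0 members passed. The mitochondrial share there was 1.134% with vehicle (Wilson 95% interval 1.131% to 1.138%) and 0.935%, 1.007% and 1.096% with leptin in WT mice, and 1.233% and 1.198% with vehicle and 0.949% with leptin (interval 0.9444% to 0.953%) in ob/ob mice. The mitochondrial median was -0.254, with 7 of 17 at an unadjusted p under 0.05 (1717 of all genes).

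A single leptin term over the WT 3 h, WT 10 h and ob/ob 10 h sets, added after the data were seen, was fitted to the depleted libraries. It called 0.0889% of genes higher and 0.534% lower, and 2 mitochondrial members fell. They were mt-Nd1 (log2 -0.353, SE 0.068, adjusted p = 0.0373, edgeR) and mt-Cytb (-0.355, SE 0.071, adjusted p = 0.0423, edgeR). The depleted mt-Nd1 values at 3 h were 1801, 1374, 1949 and 1720 CPM with vehicle and 1329, 1283 and 1346 CPM with leptin. At 10 h they were 1714 CPM with vehicle and 1353, 1476 and 1587 CPM with leptin in WT mice, and 1976 and 1754 CPM with vehicle and 1415 CPM with leptin in ob/ob mice. Leptin libraries lay below vehicle libraries within each set, and this held for 6 of 17 mitochondrial members (mt-Nd1, mt-Co1, mt-Nd4, mt-Nd5, mt-Cytb and mt-Tc), compared with 1.33% of all genes. The adjusted p was 0.0521 for mt-Co1 and 0.0535 for mt-Nd4 (edgeR). All 17 values were negative (median -0.338), and 13 had an unadjusted p under 0.05 (3007 of all genes).

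The count of 2 depended on the lysates and the tool. It was 8 without vehicle m3, 5 without both pituitary-rich lysates of 3 h, 3 without vehicle f1, 2 without leptin m24, 1 without vehicle f3 and 0 without each of the others, and 11 with DESeq2 and 3 with limma voom. Of the glial markers, those of microglia were lower in the leptin libraries of each set, whereas those of astrocytes overlapped at 3 h and those of oligodendrocytes differed in direction between sets. The summed microglia markers in depleted libraries were 100.3, 77.63, 112.1 and 84.94 CPM with vehicle and 67.97, 53.88 and 66.79 CPM with leptin at 3 h, 96.53 CPM against 62.14, 78.12 and 76.66 CPM in WT mice at 10 h, and 79.08 and 70.24 CPM against 63.17 CPM in ob/ob mice. All 8 microglia markers were detected, and 3 of 8 fell with a median of -0.49. The summed astrocyte markers were 783.3 to 975.6 CPM with vehicle and 681.7 to 814.3 CPM with leptin at 3 h, 925.1 CPM against 721.8 to 829.2 CPM in WT mice at 10 h, and 895.5 and 831 CPM against 701.4 CPM in ob/ob mice, and 1 of 8 fell. The summed oligodendrocyte markers were 4779 to 5496 CPM with vehicle and 4489 to 5817 CPM with leptin at 3 h, 5460 CPM against 4560 to 4921 CPM in WT mice at 10 h, and 4191 to 5494 CPM against 5523 CPM in ob/ob mice, and 0 of 8 passed. The part of these cells in the mitochondrial result was not tested.

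Of the nuclear members, 0 of 83 in depleted libraries and 0 of 82 in beads were called with leptin at 3 h, at 10 h or in the joint fit. Their median log2 differences were 0.052 in beads and 0.016 in depleted libraries at 3 h, and 0.084 and 0.027 at 10 h. Over the 3 sets together the depleted median was 0.028. Among nuclear members of at least 10 CPM, the extremes in the depleted libraries of the joint fit were Ndufs5 (0.24, SE 0.27) and Cox6a1 (-0.06, SE 0.07). The joint fit in beads called 0.022% of genes and 0 members, with a mitochondrial median of -1.41.

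**Figure D4:**
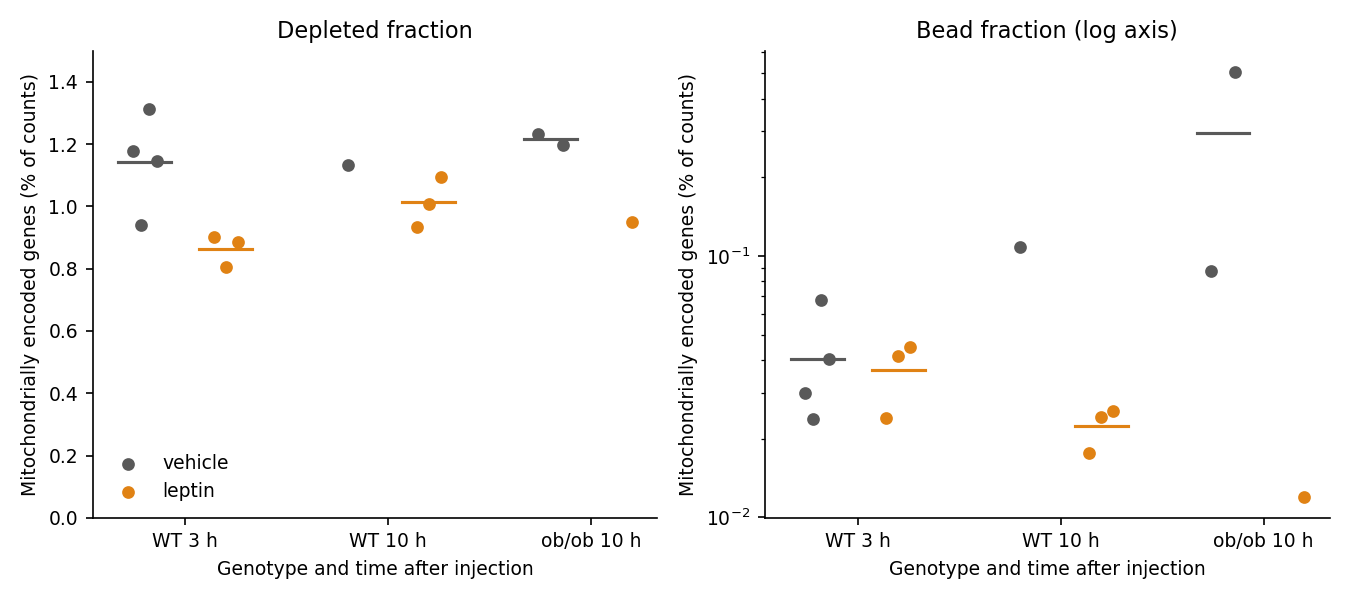
Percent of counts on mitochondrial genes in vehicle and leptin libraries of each set, with depleted libraries on the left (linear axis) and bead libraries on the right (log axis), 1 point per library and lines at group means. Genes without counts add nothing to the shares. In depleted libraries the leptin points lie below the vehicle points within each set (0.807% to 0.901% against 0.939% to 1.312% in WT mice at 3 h), and in beads they do so at 10 h but overlap at 3 h.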

How the data were processed

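Libraries were poly(A)-selected from RNA of integrity 8 or above with a kit without strand marking, and sequenced single-end over 50 cycles with 4 libraries per lane, per the labels' protocols. STAR 2.7.6a and GRCm38.p6 are named by the submitters' processing notes. The authors deposited raw counts per gene (whole numbers, no normalization). Not given in the sources used here are the program that counted reads, whether it used strand, and its annotation.

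Counts were fitted with edgeR 4.0.16 in R 4.3.3: a filter of 10 counts in 3 or more of the libraries fitted, TMM scaling, the robust quasi-likelihood F test (two-sided), and Benjamini-Hochberg adjustment over all genes at a threshold of 0.05. Bead and depleted libraries were paired by lysate, since both come from it. In 12 lysates with a group partner, deviations from the group mean correlated at 0.0812 to 0.33 between the fractions, and all 12 correlated best with their own lysate. CPM are counts scaled to a library total of 1000000. Positions and lengths come from GENCODE M21 on GRCm38 (55141 of 55487 IDs matched), and 50-base windows were compared with its transcripts. Intervals cover counting error only.

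Members and gene lists were chosen with earlier results of these data known. Named genes are the mitochondrial protein and rRNA genes, tRNAs with a mean of at least 1 CPM, fixed core subunits and isoform sets, the 5 highest and 5 lowest members of at least 10 CPM in a comparison, and the 2 highest and 2 lowest passing genes of each other list; a gene this rule would name is not reported here. The joint leptin fit and the fraction fit per set were added after the data were seen. DESeq2 1.42.0 and limma 3.58.1 (voom) were alternatives. The edgeR fits were tested on simulated data with 200 genes changed by a log2 of 1 per comparison. Recovered were 194 for fraction, 165 for leptin at 3 h in depleted libraries and 168 for time there, with 13, 7 and 10 false calls. The simulated libraries shared 1 profile and a fixed spread, without lysate or run effects. The simulation therefore does not cover genes that vary widely between lysates, as the mitochondrial members do in beads.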

Additional observations from a re-analysis of the deposited data

Results flagged for a closer look

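In the 3 h vehicle beads of WT mice, Cox7a2l was at 103 CPM in the f1 lysate and at 143.4 to 150.5 CPM in the other 3, a gap that exceeded Dixon's limit for 4 samples. Of 84 groups of values tested this way it was the only one to do so, and chance alone passes about 1 in 20. The change of the fraction difference between 3 and 10 h in WT mice passed the edgeR test for 1 nuclear member, Atp5g1, at 0.417 on the log2 scale.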

How the results depend on the processing

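The lower bead level of the mitochondrial members held for all 17 in every alternative tried, and the fit with no replicate block (unpaired by lysate) called 17 mitochondrial and 78 nuclear members, the same counts as the paired fit. By the main filter, mt-Te, mt-Ti, mt-Tm and mt-Tq entered only through the depleted libraries. Leaving out 1 lysate gave 17 to 17 mitochondrial and 78 to 79 nuclear members for the fraction difference. With scaling by library totals the fraction differences of Atp5b (-0.00415), Uqcrc1 (-0.0148) and Ndufa9 (-0.00458) changed sign over all lysates, those of Uqcrc1 (-0.0126), Ndufs3 (-0.0365) and Ndufa9 (-0.0257) in WT mice at 3 h, and those of Uqcrc1 (-0.0238) and Ndufa10 (-0.082) in WT mice at 10 h. That scaling gave 0 nuclear members for the change of the fraction difference with time and 2 mitochondrial members for time in depleted libraries.

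With no low-count filter the calls, mitochondrial then nuclear, were 4 and 15 for the change of the fraction difference with time and 13 and 1 for that with genotype. They were 6 and 6 for time in beads, 7 mitochondrial for time in depleted libraries, 9 mitochondrial for genotype in beads and 1 mitochondrial for genotype in depleted libraries. For leptin without the filter there was 1 nuclear call at 3 h in beads, 11 and 1 at 3 h in depleted libraries, 13 mitochondrial at 10 h in beads and 8 at 10 h in depleted libraries. The joint leptin fit then called 12 mitochondrial members in beads, and 12 and 1 in depleted libraries. DESeq2 called 7 nuclear members for the change of the fraction difference with time, 3 nuclear for time in beads and 2 mitochondrial for time in depleted libraries. For leptin it called 12 mitochondrial members at 10 h in beads, 9 at 3 h in depleted libraries, and in the joint fit 1 in beads and 11 in depleted libraries. A filter of 50 counts gave 2 mitochondrial calls for time in depleted libraries and 5 for the joint leptin fit there. Without vehicle m3 and leptin f2 together there was 1 nuclear call for time in beads, 1 mitochondrial call for leptin at 3 h in depleted libraries and 5 in the joint fit. In leptin-treated lysates alone, time in depleted libraries gave 0 mitochondrial and 2 nuclear calls, and genotype 0 nuclear calls. The cause of these changes was not tested.

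When 1 lysate was left out, nuclear calls ranged from 0 to 23 for the change of the fraction difference with time, from 0 to 3 for time in beads, from 3 to 37 for time in depleted libraries and from 0 to 23 for genotype in depleted libraries. Mitochondrial calls ranged from 0 to 3 for time in depleted libraries, from 0 to 11 for leptin at 10 h in beads, from 0 to 9 for leptin at 3 h in depleted libraries and from 0 to 8 for the joint leptin fit in depleted libraries. The time count was 37 without the first ob/ob vehicle lysate. Groups of 1 lysate borrow their spread from the others, mitochondrial counts in beads are low (17.32 CPM for mt-Cytb in ob/ob leptin beads), and run, time and genotype cannot be told apart.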
